A study of Mus musculus with 6 samples.

Results

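Interleukin-33 (Il33), the receptors and ligands of the interleukin-1 (IL-1) family and the related epithelial cytokine Tslp were followed in mouse tracheal epithelium 48 h after injury by sulfur dioxide. The genes were Il33, Il1rl1, Il1rap, Il1a, Il1b, Il1rn, Il18, Il1r1, Il1r2 and Tslp, 10 in all, and every probe set that the array annotation gives to 1 of these symbols alone was taken. This gave 16 of 45037 probe sets and 9 of 18193 genes. Il1rl1, which encodes the IL-33 receptor ST2, had no probe set under its symbol and was not analysed here. The group was selected on the rise of Il33 between the same arrays, so its values are given as a description. Calls from the fit across all probe sets are stated for the family only to set them beside the share of all probe sets, and are no test of it.

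The 48 hpi (hours post injury) group held tracheal epithelium of C57Bl/6 mice taken 48 h after exposure to 500 ppm SO2 for 4 h, and the control group held epithelium of normal C57Bl/6 mice. Each group had 3 biological replicates, and each replicate was a pool of 4 tracheas, so that differences between single animals are averaged. In both groups the epithelium was lifted off with protease, and CD45+ leukocytes were removed with magnetic beads before RNA was prepared. The methods give male mice of 8-12 weeks for SO2 exposure. RNA was hybridised to Affymetrix Mouse Genome arrays, and values are log2 signals after robust multi-chip analysis (RMA).

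IL-33 is a nuclear cytokine of epithelial and endothelial cells that is set free when cells are damaged and is therefore called an alarmin. It binds ST2, which pairs with the accessory protein encoded by Il1rap, and the pair signals through Myd88, IRAK kinases and Traf6 to NF-kappaB and MAP kinases. IL-1alpha, IL-1beta and IL-36 use the same accessory protein with receptors of their own, whereas IL-18 has its own receptor pair. In airways, IL-33, TSLP and IL-25 are known as the epithelial cytokines that call on innate lymphoid cells, mast cells and T helper cells of type 2 immunity.

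The starts of the genes whose values stood furthest from control are shown as the RefSeq promoter table (GRCm38.p6) gives them, 250 bases before each start, 5′ to 3′ on the plus strand. Il33 has 2 annotated starts on chromosome 19, at the ends of chr19:29924863-29925112 and chr19:29945540-29945789. Il1r2 follows chr1:40085843-40086092, and Il1rap follows chr16:26581455-26581704. Capitals mark matches to any of 5 short motifs.
Il33, first start: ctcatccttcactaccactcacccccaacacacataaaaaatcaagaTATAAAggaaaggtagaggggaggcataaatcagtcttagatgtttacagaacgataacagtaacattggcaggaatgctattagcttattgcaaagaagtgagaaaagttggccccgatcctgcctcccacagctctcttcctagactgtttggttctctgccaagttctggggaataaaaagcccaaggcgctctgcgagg
Il33, second start: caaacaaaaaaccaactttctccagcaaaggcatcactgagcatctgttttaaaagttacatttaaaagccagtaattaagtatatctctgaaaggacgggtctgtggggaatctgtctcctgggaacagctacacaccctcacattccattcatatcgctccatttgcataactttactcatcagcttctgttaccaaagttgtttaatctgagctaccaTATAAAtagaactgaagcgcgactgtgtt
Il1r2: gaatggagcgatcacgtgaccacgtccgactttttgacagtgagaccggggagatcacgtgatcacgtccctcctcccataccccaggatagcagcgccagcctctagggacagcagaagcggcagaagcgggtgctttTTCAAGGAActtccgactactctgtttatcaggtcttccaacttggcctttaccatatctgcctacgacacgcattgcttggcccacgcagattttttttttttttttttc
Il1rap: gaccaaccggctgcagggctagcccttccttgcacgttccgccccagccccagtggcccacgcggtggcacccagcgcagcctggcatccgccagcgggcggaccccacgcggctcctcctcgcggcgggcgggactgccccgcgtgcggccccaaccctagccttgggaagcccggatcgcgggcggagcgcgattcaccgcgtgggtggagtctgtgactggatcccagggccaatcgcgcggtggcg

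Both Il33 windows held the TATA box letters TATAAA, at bases 203 to 198 before the first start and at bases 29 to 24 before the second. TATAAA was present on either strand in 12.4% of all 32851 windows of the same length. The Il1r2 window held 1 match to TTCNNNGAA, the letters of the interferon gamma activated site, at bases 111 to 103 before the start, a motif found in 7.02% of windows. The Il1rap window held none of the motifs. AP-1 (TGANTCA, 6.75% of windows), NRF2 (TGACNNNGC, 10.2%) and the NF-kappaB motif (7.25%) were absent from all 4 windows. Such letters describe the sequence, and no binding was measured. The array signal does not tell which Il33 start was used.

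Levels were read against a background level. For it, 81 probe sets of odorant, pheromone and trace amine receptor genes, which are taken as silent in trachea, were averaged within each group, and their 95th percentile was used. It was 4.81 at 48 hpi and 4.93 in control. Of the 16 probe sets, 8 lay above it in at least 1 group. The plot of values by array shows Il33 far above this level at 48 hpi and below it in control, while the other probe sets of the family stayed within 1 log2 unit of their control level.

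**Figure D1:**
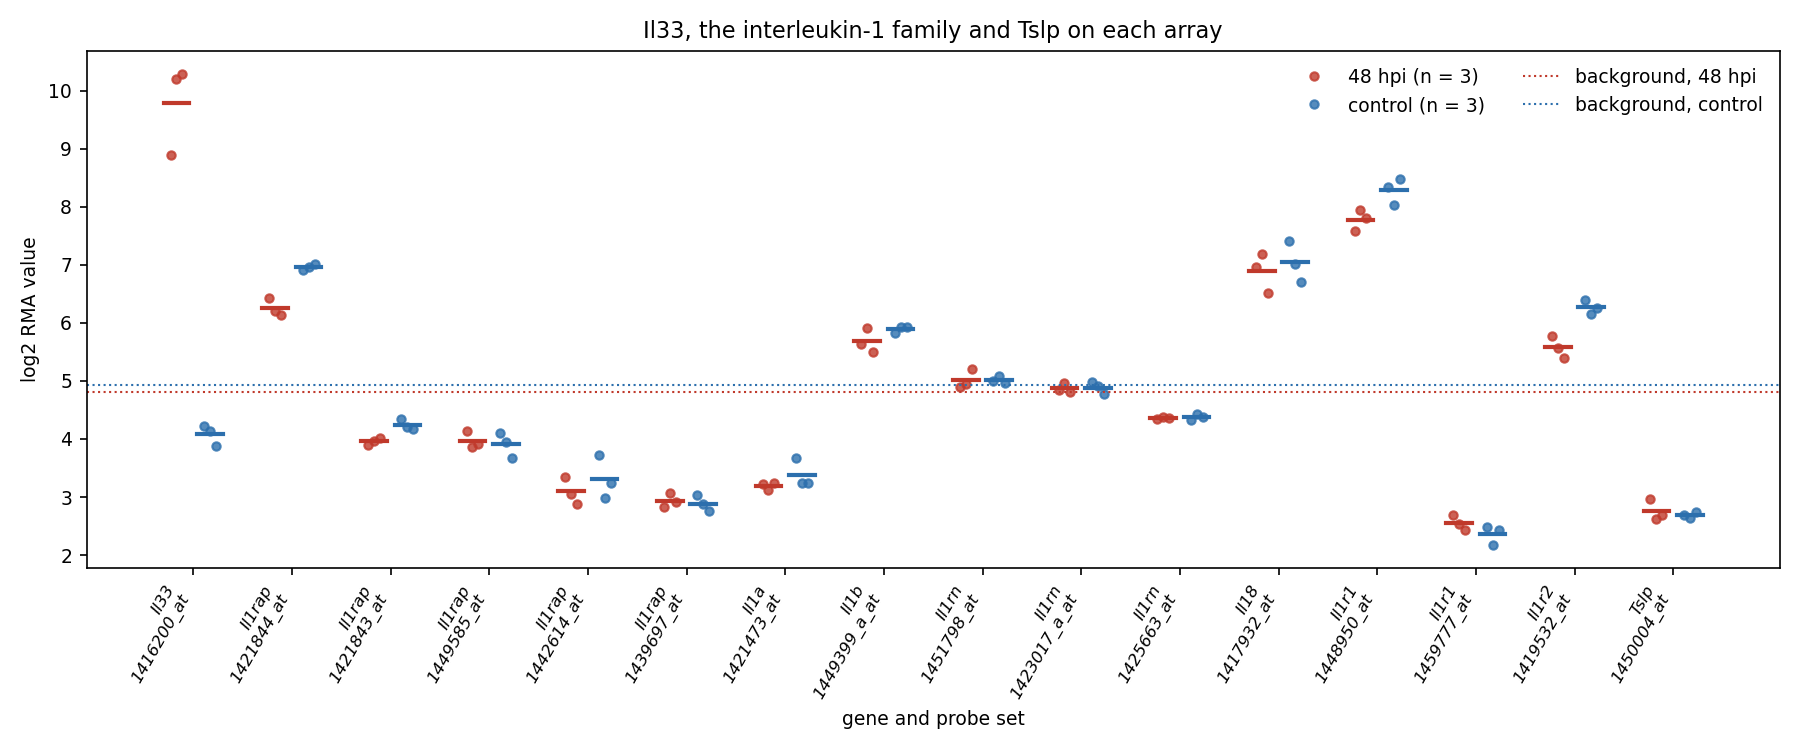
Log2 RMA value (vertical axis) of each of the 16 probe sets (horizontal axis) on the 3 arrays at 48 hpi (left, red) and the 3 control arrays (right, blue), with bars at the group means and dotted lines at the background levels of 4.81 and 4.93. The 48 hpi points of Il33 lie between 8.90 and 10.28, and its control points lie between 3.88 and 4.22.

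Il33 was measured by 1 probe set, 1416200_at. Its values were 8.90, 10.19 and 10.28 in the 3 pools at 48 hpi, against 4.22, 4.14 and 3.88 in the 3 control pools. The groups were far apart, and the first pool at 48 hpi stood below the other 2 of its group. The means were 9.79 ± 0.77 at 48 hpi and 4.08 ± 0.18 in control (SD, n = 3 pools each). The difference, 48 hpi minus control, was 5.71 on the log2 scale (SE 0.33, 95% interval 4.94 to 6.48), which corresponds to 52.3-fold. Because the control level lay within background, the rise is better read as at least 28.9-fold, measured from the control background level. Among all 45037 probe sets the difference of Il33 ranked 2, counted from the largest rise. Without the first 48 hpi pool it was 6.16, and without the third it was 5.46. In bulk RNA, more cells with the transcript and more transcript per cell cannot be told apart.

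Over the family, 1 probe set was called higher at 48 hpi (limma, Benjamini-Hochberg adjusted p below 0.05), 4 were called lower and 11 were not called, where 14.5% of all probe sets were called higher and 13.9% lower. In 1 probe set every 48 hpi array lay above every control array and in 4 every one lay below, patterns seen in 21.0% and 22.4% of all probe sets. By the brightest probe set of each gene, Il33 was called higher, 3 genes were called lower and 5 were not called, beside 18.4% of all genes called higher and 16.1% called lower. The median difference was -0.19 over the 9 genes and -0.02 over all genes. Since the genes were selected on this contrast, nothing is read from these counts.

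**Figure D2:**
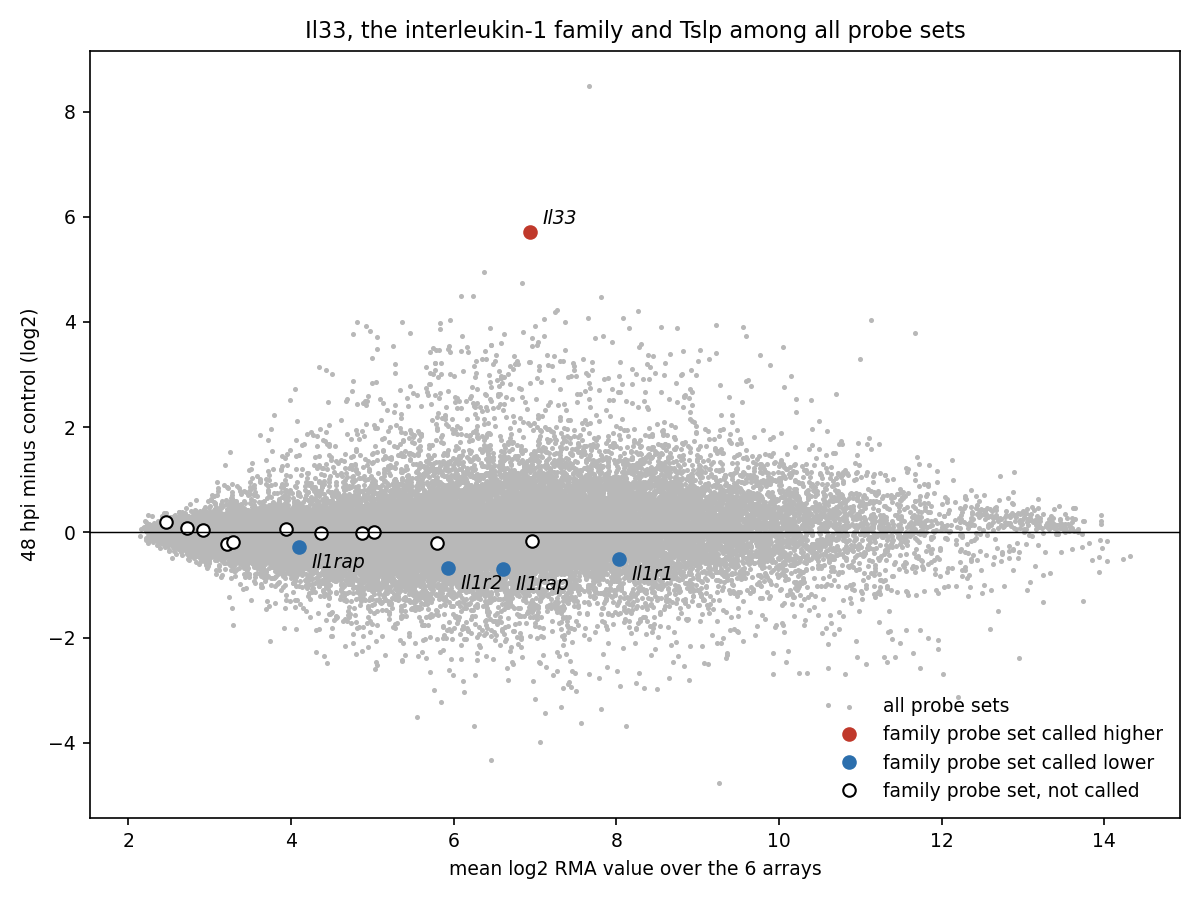
Difference between 48 hpi and control (log2, vertical axis) against the mean log2 RMA value over the 6 arrays (horizontal axis) for all 45037 probe sets in grey, with the 16 probe sets of the family on top. Il33 stands at 5.71, with 1 grey point above it, and the 4 probe sets called lower lie between -0.70 and -0.28.

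Il1rap, Il1r1 and Il1r2, the receptor genes of the family read above background, had lower means at 48 hpi. Il1rap, the accessory protein shared by the receptors for IL-33, IL-1 and IL-36, gave 6.43, 6.20 and 6.14 at 48 hpi on its brightest probe set (1421844_at), against 6.91, 6.97 and 7.01 in control. The groups did not overlap, and the control pools lay within 0.1 of each other. The difference was -0.70 (SE 0.10), 1.63-fold. The other 4 Il1rap probe sets were within background in both groups, with differences of -0.28, 0.06, -0.22 and 0.05. The first of these (1421843_at) was called lower, but it kept the call in 2 of 17 alternative analyses and lost it in the fit with the replicate number as a block, so that only 1421844_at carries a level for this gene.

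Il1r1 encodes the signalling receptor for IL-1alpha and IL-1beta. Its brightest probe set (1448950_at) read 7.58, 7.94 and 7.81 at 48 hpi, against 8.34, 8.03 and 8.48 in control, with a difference of -0.51 (SE 0.14). The highest 48 hpi pool and the lowest control pool were close to each other. Its call was the least steady of the 3 genes called lower. It was lost without the first 48 hpi pool (-0.41), the third 48 hpi pool (-0.52), the first control pool (-0.48) or the third control pool (-0.41). The second probe set of Il1r1 (1459777_at) was within background, with means of 2.56 at 48 hpi and 2.36 in control.

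Il1r2 encodes the decoy receptor, which binds IL-1 without signalling. It read 5.78, 5.57 and 5.40 at 48 hpi, against 6.39, 6.15 and 6.26 in control. The groups were separate, and the difference was -0.69 (SE 0.12), 1.61-fold. Leaving out any single array kept the calls of Il1r2 and of 1421844_at.

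The ligands other than Il33 lay near their control levels. Il1b, the IL-1beta gene, read 5.64, 5.92 and 5.50 at 48 hpi, against 5.82, 5.93 and 5.93 in control, a difference of -0.21 (SE 0.12, 95% interval -0.48 to 0.07). Il18, a cytokine stored by epithelium as an inactive precursor, varied most between pools. It read 6.96, 7.19 and 6.51 at 48 hpi and 7.41, 7.01 and 6.71 in control, so the groups overlapped, and the interval of its difference of -0.16 ran from -0.65 to 0.34. Il1a, the IL-1alpha gene and like Il33 a nuclear alarmin, was within background, with means of 3.20 ± 0.07 at 48 hpi and 3.38 ± 0.25 in control (SD, n = 3 each). Tslp was within background as well, at 2.76 ± 0.18 at 48 hpi and 2.69 ± 0.05 in control (SD, n = 3 each).

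Il1rn encodes the receptor antagonist, which occupies Il1r1 without signalling. Its 3 probe sets had differences of 0.00, -0.02 and -0.01. The brightest, 1451798_at, read 4.90, 4.95 and 5.20 at 48 hpi, against 5.01, 5.08 and 4.96 in control, just above background. Its 95% interval ran from -0.24 to 0.25.

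These differences rest on RMA values, which set the arrays to a common distribution. When each array was shifted so that its hybridization controls had the same mean, the median difference of all probe sets was 0.32, against -0.03 in the deposited values. Under this shift Il33 stood at 6.05, and the genes called lower stood at -0.36 (Il1rap, 1421844_at), -0.34 (Il1r2) and -0.16 (Il1r1) and lost their calls. They still lay below the median of all probe sets. In this scaling limma estimated 1 common spread for all probe sets, so that its calls there follow the size of the difference alone. Il1b, Il18 and Il1a, which had not been called, turned to 0.14, 0.19 and 0.16. A shift to a common median kept the calls of Il33, Il1rap (1421844_at) and Il1r2, and Il1r1 lost its call at -0.43.

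Genes that encode further ligands, receptors, processing enzymes and targets of the family were taken from 8 lists, each gene by its brightest probe set, with limma adjusted p-values over all probe sets. Of the other ligands, none of the 5 measured was called, beside 18.4% of all genes called higher and 16.1% called lower. Il1f6, Il1f8 and Il1f9 (the IL-36 cytokines) were within background, with differences of 0.09, 0.01 and 0.18. Il1f5, the IL-36 receptor antagonist, and Il1f10 (IL-38) were just above it, at -0.09 and 0.11. At an unadjusted p below 0.05 the count was also 0 in the limma fit, and it was 0 under the methods' t-test.

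Among 7 other receptors and binding proteins, 1 was called higher and 1 lower. Il18r1, the binding chain for IL-18, fell to 8.80, 8.96 and 9.08 at 48 hpi, against 9.72, 9.68 and 9.72 in control, with a difference of -0.76 (SE 0.10, adjusted p = 0.00093). Il18rap, its partner chain, read 6.14, 6.12 and 6.77 at 48 hpi and 5.82, 5.81 and 5.98 in control. Its difference was 0.47 (adjusted p = 0.082, and 0.028 with the replicate number as a block). The other probe set of Il18rap was within background in both groups and was called higher (0.45, adjusted p = 0.039). Whether the chains differ from each other was not tested. With equal hybridization controls Il18r1 lost its call (-0.42) and Il18rap was called higher (0.81).

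Il1rl2, the receptor for IL-36, was higher by 0.30 (SE 0.09, adjusted p = 0.034) on its brightest probe set. The call was lost when any 1 of the 6 arrays was left out (0.26 to 0.33) and with the replicate number as a block (adjusted p = 0.062), and the other probe set of Il1rl2 was at -0.003. Sigirr, an inhibitory receptor, and Il18bp, which traps IL-18, had differences of -0.16 and -0.12 and were not called. Il1rapl1 and Il1rapl2 were within background, at 0.07 and -0.15. For TSLP, neither receptor chain was called. Crlf2 had a difference of 0.12 (SE 0.23), and Il7r was within background.

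The receptor genes form a cluster on chromosome 1. In order they are Il1r2, Il1r1, Il1rl2, Il1rl1, Il18r1 and Il18rap, between Map4k4 and Slc9a4. Their differences did not run one way, being -0.69, -0.51 and 0.30 for the first 3 and -0.76 and 0.47 for the last 2 (Il1rl1 was not analysed here). Map4k4, a kinase gene at the edge of the cluster, rose by 0.39 (adjusted p = 0.024), and Slc9a4 was at -0.07. Il33 lies on chromosome 19 between Ranbp6 and Trpd52l3, whose differences were 0.18 (adjusted p = 0.24) and -0.02 (adjusted p = 0.94). Neither of these neighbours was called.

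**Figure D3:**
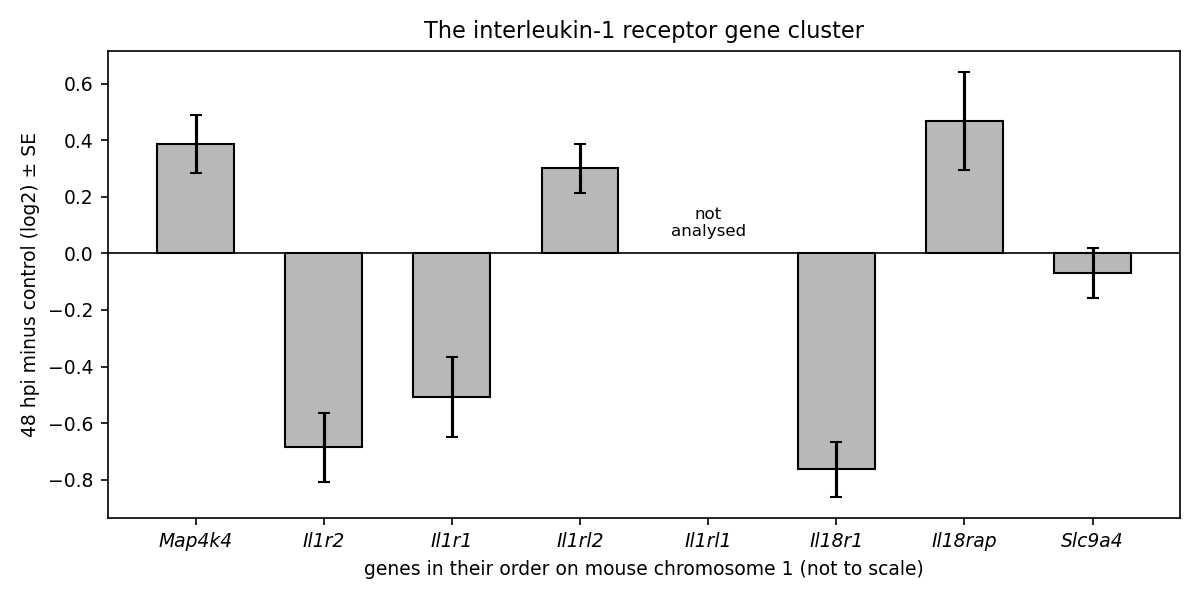
Difference between 48 hpi and control (log2, bars, with the SE of the limma fit) for the genes of the IL-1 receptor cluster in their order on chromosome 1, spacing not to scale. Il1r2, Il1r1 and Il18r1 lie below 0, and Il1rl2 and Il18rap lie above it.

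Inflammasomes are the protein complexes that lead to processing and release of IL-1beta and IL-18. Of 13 measured inflammasome genes, 2 rose, 2 fell and 9 were not called, where 18.4% of all genes were called higher and 16.1% lower, and without the first 48 hpi pool 5 fell. Pycard, the adaptor that joins sensors to caspase-1, rose to 10.50, 10.23 and 10.48 at 48 hpi, against 9.58, 9.67 and 9.59 in control (0.79, SE 0.10, adjusted p = 0.00099), although its dimmer probe sets were at 0.09 and -0.27 and were not called. Gsdme, a pore-forming gasdermin, rose by 1.29 (SE 0.15, adjusted p = 0.00063). Txnip and Nek7, whose proteins both bind the sensor NLRP3, fell by 1.35 and 0.54 (adjusted p = 0.0014 and 0.0032), and Nek7 lost its call with equal hybridization controls (-0.20).

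Casp1, the enzyme that matures IL-1beta and IL-18, read 7.31, 6.39 and 5.59 at 48 hpi, against 7.51, 7.05 and 7.25 in control. The 48 hpi pools were widely spread, and the difference of -0.84 (SE 0.37) did not pass the test (adjusted p = 0.13, and 0.038 with the replicate number as a block). Casp4, a caspase that responds to intracellular lipopolysaccharide, was at -0.63 (adjusted p = 0.071, and 0.046 with the block). Nlrp3 itself was just above background at 0.07.

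Of 11 measured proteases that cut IL-1 family proteins, 5 rose, none fell and 6 were not called, beside the same 18.4% and 16.1% of all genes. Without the second or the third 48 hpi pool, or the first or the second control pool, 3 rose. Casp8, which can mature IL-1beta, rose to 8.36, 8.45 and 8.60 at 48 hpi, against 7.58, 7.63 and 7.78 in control (0.81, adjusted p = 0.00092). Capn1, a calpain subunit gene, rose by 0.56 (adjusted p = 0.0021) and by 0.59 on another probe set. Adam17, which sheds Il1r2 from the cell surface, rose by 0.61 (adjusted p = 0.0057), with 0.13 and 0.22 on dimmer probe sets that were not called. Adam10, a related sheddase, rose by 0.36 (adjusted p = 0.028), a call lost without the second 48 hpi pool (0.31), the third 48 hpi pool (0.36), the first control pool (0.29) or the second control pool (0.37). Its dimmer probe sets did not agree. They were at 0.04 (not called), 0.63 (adjusted p = 0.012, control within background) and 0.002 (within background in both groups, not called). The neutrophil and mast cell proteases known to cut IL-33 (Elane, Ctsg, Prtn3 and Cma1) and the lymphocyte protease Gzmb were within background in both groups.

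In the list of IL-1 receptor signal transduction, 3 of 21 measured genes rose, 4 fell and 14 were not called, beside 18.4% of all genes called higher and 16.1% called lower. Of the 4, 1 was called with equal hybridization controls, and 1 gene rose without the second 48 hpi pool, the third 48 hpi pool or the third control pool. Ikbkg, the regulatory subunit of the IkappaB kinase, fell to 7.33, 7.46 and 7.19 at 48 hpi, against 8.46, 8.56 and 8.64 in control (-1.23, SE 0.10, adjusted p = 0.00016). Its 4 dimmer probe sets above background lay between -0.48 and -0.13, with 1 called. Irak2, a receptor-associated kinase, and Peli1, a ubiquitin ligase, fell by 0.83 and 0.76 (adjusted p = 0.0012 and 0.0020). Both lost their calls with equal hybridization controls, at -0.49 and -0.41. Ube2n, the ubiquitin-conjugating enzyme used by Traf6, rose by 0.68 (adjusted p = 0.0091), although its dimmer probe set was at -0.18 and was not called. The call of Ube2n was lost with the methods' t-test after adjustment and with the mean of all its probe sets. Myd88 was at -0.12, Irak1 at 0.16 and Traf6 at 0.09, all uncalled on their brightest probe sets. A dimmer Irak1 probe set was called higher (0.46, adjusted p = 0.0060), and its others were at 0.29 and 0.26 and were not called.

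Most genes in the lists of IL-1-induced genes and of type 2 immunity genes were not called, and those called were lower at 48 hpi except Csf2. Of 20 measured genes induced by IL-1 in epithelium, 1 rose, 8 fell and 11 were not called, with a median difference of -0.50, against -0.02 over all genes, of which 18.4% were called higher and 16.1% lower. After adjustment the methods' t-test called 3 lower, and with equal hybridization controls 4 were called lower and 2 higher. Nfkbia, the NF-kappaB inhibitor and an immediate target of the pathway, fell to 11.57, 11.65 and 11.31 at 48 hpi, against 12.67, 12.43 and 12.52 in control (-1.03, adjusted p = 0.00058). Its 4 other probe sets fell as well, by 0.84 to 1.47. Ccl20, a chemokine for CCR6-bearing cells, fell by 1.60 (adjusted p = 0.00041), and Steap4, a metalloreductase, fell by 1.93 (adjusted p = 0.0028). Csf2, which encodes GM-CSF, moved the other way. It read 5.69, 5.23 and 5.37 at 48 hpi, against a control level within background, at least 1.41-fold higher (adjusted p = 0.00070).

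Of 16 measured type 2 immunity genes, 7 fell, none rose and 9 were not called, with a median difference of -0.34, beside the same shares of all genes. After adjustment the methods' t-test called 2 of them lower. Il13ra1, a receptor chain for IL-13, fell by 1.16 (adjusted p = 0.00097), and its 3 other probe sets above background fell by 0.77 to 1.18. Its remaining probe set was within background in both groups, at -0.13, and was not called. Foxa3, a transcription factor of goblet cells, fell into background, at least 1.68-fold (adjusted p = 0.00064). Muc5ac, the goblet cell mucin, fell by 1.03 (adjusted p = 0.0044). Clca1, which IL-13 induces, read 6.69, 7.54 and 5.51 at 48 hpi, against 8.63, 10.03 and 9.86 in control (-2.93, SE 0.52, adjusted p = 0.0044). Il25, the epithelial cytokine named beside Il33 and Tslp above, was within background. Without the second control pool, 4 of the 7 calls were made.

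**Figure D4:**
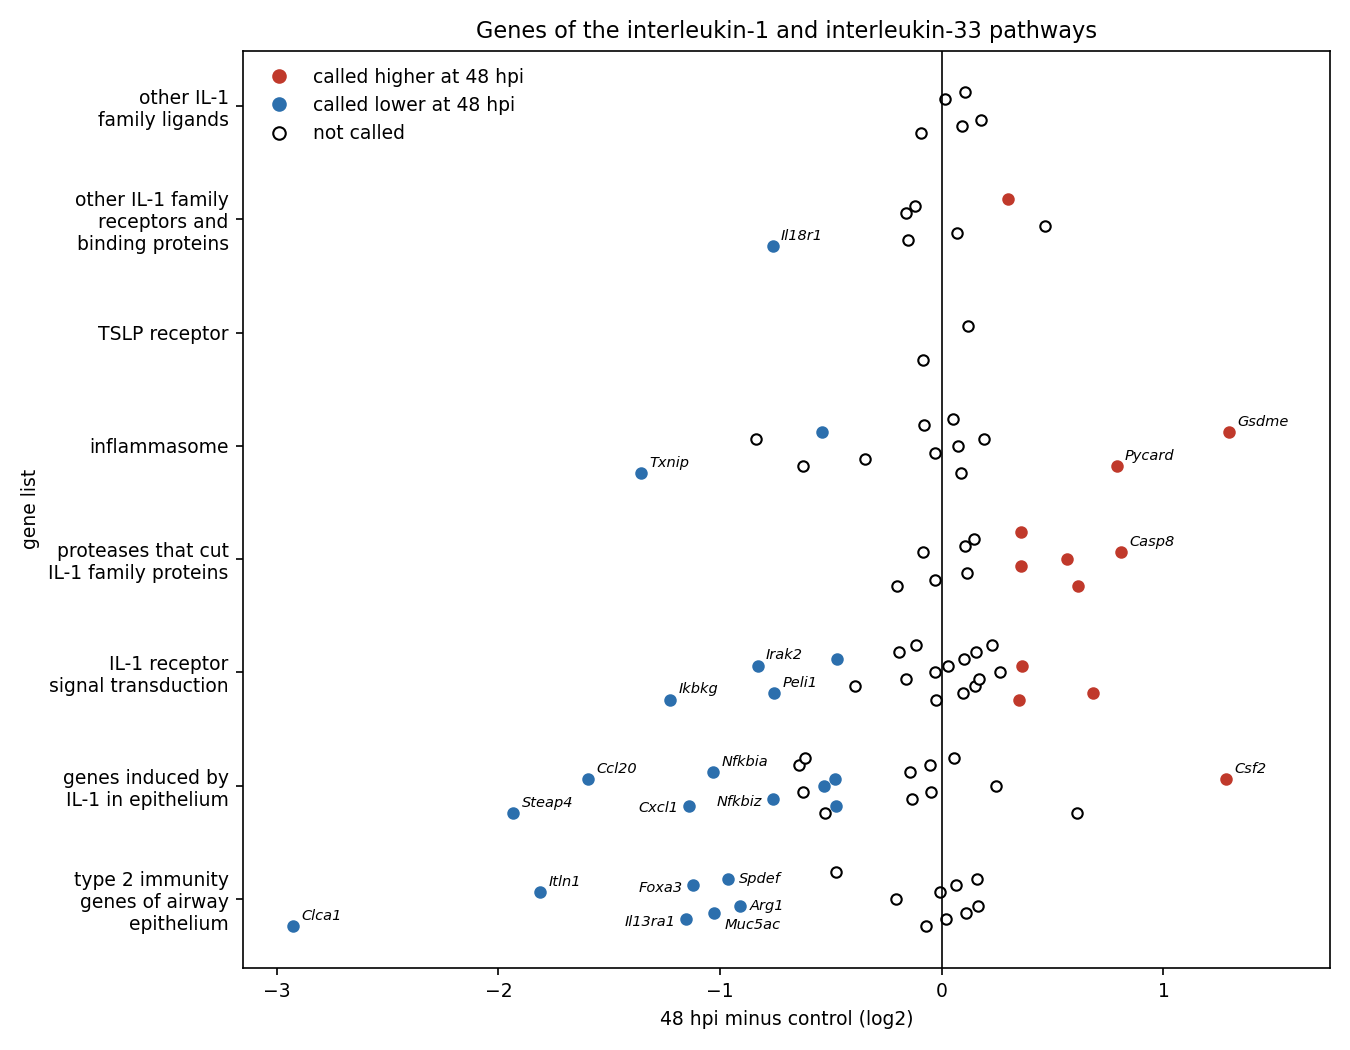
Difference between 48 hpi and control (log2, horizontal axis) of each measured gene in 8 lists (rows, with points spread vertically for legibility). Filled points passed an adjusted p of 0.05, in red where higher and in blue where lower at 48 hpi, and names are given for calls beyond 0.7; the rightmost points are Gsdme at 1.29 and Csf2 at 1.28, and the leftmost is Clca1 at -2.93.

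Levels of cell type markers differed between the groups beside these genes. Of 8 secretory cell markers 5 fell and none rose, and their summed level (log2 of the sum of unlogged values) was 15.6 to 16.4 at 48 hpi, against 16.9 in each control pool. Without the first control pool 3 of them fell, and without the second or the third control pool 2 fell. The secretory markers were lowest in the third 48 hpi pool, as were Casp1, Casp4, Clca1 and Muc5ac. Of 8 ciliated cell markers 7 fell, while Foxj1 was at -0.04, with summed levels of 8.81 to 9.95 at 48 hpi and 9.91 to 11.0 in control, and 4 fell without the first 48 hpi pool and 3 without the third 48 hpi pool or the second or the third control pool. Of 8 basal cell markers 2 rose (Krt14 by 3.18, Krt5 by 0.69) and 3 fell (Dapl1 by 0.95, Ngfr by 0.66, Pdpn by 0.35, a call lost with the block at an adjusted p of 0.052), with summed levels of 14.3 to 14.4 at 48 hpi and 14.0 to 14.1 in control. The call of Pdpn was also lost without any 1 array but the third 48 hpi pool (-0.38 to -0.28). Markers of epithelium of any type were bright in all pools, with Epcam at 11.2 to 11.4 at 48 hpi and 11.0 to 11.1 in control. Of the 6 genes of that list Krt8 and Epcam rose by 0.43 and 0.28, and Epcam lost its call with the block (adjusted p = 0.062) and without any 1 array but the third 48 hpi pool (0.25 to 0.30), with summed levels of 14.4 to 14.5 at 48 hpi and 14.2 to 14.3 in control. The part of these shifts in the values of Il33 and of the genes that fell was not tested.

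Markers of other cells that carry IL-33, respond to it or enter injured tissue were read as well. Of 8 endothelial markers 1 rose (Plvap, at least 1.23-fold from a control level within background), while Pecam1, Cdh5 and Cldn5 were within background in both groups, with summed levels of 7.05 to 7.22 at 48 hpi and 6.96 to 7.13 in control. Of 8 fibroblast markers Dcn alone was called and fell by 1.85. The summed level was 8.38 to 9.62 at 48 hpi, against 10.2 to 10.7 in control, and Dcn was the only marker of the list that was lower, since the other 7 had differences of 0.05 to 1.04. Of these 2 were called higher without the first 48 hpi pool, 1 (Col3a1) with the block and 4 with equal hybridization controls. Of 9 markers of type 2 innate lymphoid cells Rora alone was called and fell by 1.97, with Gata3 and Il5 within background (summed levels 7.72 to 8.01 at 48 hpi and 8.73 to 8.80 in control). The other 8 had differences of -0.25 to 0.11, with a list median of 0.04. Of 9 mast cell markers Kit fell into background, at least 1.96-fold, and Hdc fell by 1.92, with Cpa3, Fcer1a and Ms4a2 within background (7.81 to 8.13 at 48 hpi and 8.58 to 9.16 in control). Ptprc, which encodes CD45, was within background, at 2.82, 2.86 and 2.82 at 48 hpi and 3.05, 2.93 and 3.14 in control. Of 10 macrophage and dendritic cell markers Csf1r and Cd74 fell by 0.84 and 0.41 (10.5 to 11.0 at 48 hpi and 11.0 to 11.2 in control), and of 7 lymphocyte markers Cd4 fell by 0.40 (7.41 to 7.55 at 48 hpi and 7.48 to 7.68 in control). The call of Cd4 was lost with the block (adjusted p = 0.050) and without any 1 array but the third control pool (-0.41 to -0.30). Of 7 neutrophil markers none was called, with summed levels of 7.21 to 7.35 at 48 hpi and 7.18 to 7.48 in control, and 1 was called higher without the first control pool. Of 6 platelet markers none was called, with summed levels of 7.73 to 7.90 at 48 hpi and 7.74 to 8.04 in control, and 1 fell without the third control pool. At an unadjusted p below 0.05 in the limma fit, 1 neutrophil marker (S100a8, 0.32) and 1 platelet marker (Treml1, -0.32) differed, both chosen here for these values. S100a8 was within background in both groups, with means of 3.69 at 48 hpi and 3.37 in control, and its groups overlapped.

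The genes whose profile over the 6 arrays came nearest to that of Il33 were Lgals1, Fst, Uhrf1, Mtm1 and Fscn1, by the root mean square difference of log2 values after centring each gene on its own mean. The measure was 0.65 for Lgals1 (galectin-1), 0.88 for Fst (follistatin, an inhibitor of activins and BMPs), 0.92 for Uhrf1 (a factor that maintains DNA methylation at replication), 0.93 for Mtm1 (a phosphoinositide phosphatase) and 0.94 for Fscn1 (an actin-bundling protein). The 6 points are 2 groups of 3 arrays, so the measure mainly finds genes with a difference of like size. Lgals1 read 9.40, 10.12 and 10.64 at 48 hpi, against 5.89, 5.43 and 5.40 in control, a difference of 4.48 (SE 0.29). Like Il33 it was lowest in the first of the 48 hpi pools, and its other probe set above background differed by 4.19.

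Fst differed by 4.94 (SE 0.43), or at least 15.0-fold from a control level within background, and by 4.50 on its other probe set. It was lowest in the second 48 hpi pool, at 7.84, where Il33 was at 10.19. Uhrf1 differed by 4.07 (2.73 on another probe set). Mtm1 differed by 4.08 on its brightest probe set and by 3.24 and -0.17 on others, and Fscn1 differed by 3.89 and by 1.01 and 0.06, so for these genes the likeness holds for some of their probe sets only.

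**Figure D5:**
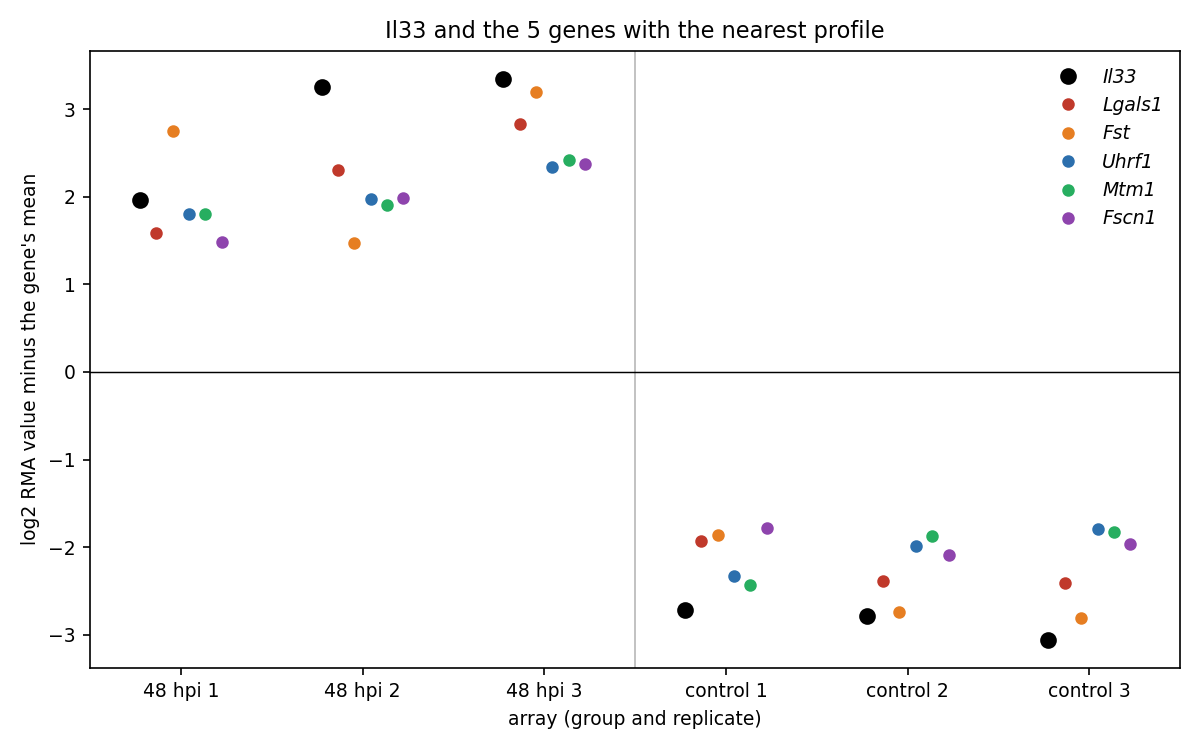
Log2 RMA value minus the gene's own mean over the 6 arrays (vertical axis) for Il33 (black) and the 5 nearest genes (colours) on each array at 48 hpi (left) and in control (right). All 6 genes lie above 0 on the 48 hpi arrays and below 0 on the control arrays, and Il33 differs most between the groups.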

How the data were processed

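The authors hybridised RNA of 6 epithelial pools to Affymetrix arrays and normalised the signals by RMA in Partek 6.5, and the submitters' processing notes also name Affymetrix Expression Console 1.1. The deposited values are log2 signals, from 2.01 to 14.6, without detection calls. RMA forces a like distribution on all arrays, which can hide a shift common to most genes. With 3 arrays per group, precision is limited by their number.

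Of 45101 probe sets listed, 64 controls were left out. The GEO platform annotation gave 1 symbol for 34945 of the rest, several for 932 and none for 9160. Entrez IDs were looked up in the RefSeq gene table (GRCm38.p6), which held 34741 of them and changed 0 symbols. A listed gene that no probe set names alone was not used. The test was limma's (version 3.58.1, R version 4.3.3, lmFit and eBayes as by default, no block), with Benjamini-Hochberg adjustment over 45037 probe sets and a threshold of 0.05. The fit was tested on simulated data with known differences, which checked their sign and size. The check set no requirement for small differences to be called, so a gene not called may still differ. Figures were made in Python 3.11.15 with matplotlib 3.10.9.

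The genes and lists were chosen with earlier results of these data known. The text names every probe set of the family, every gene of the 3 shortest lists, up to 4 called genes with the smallest p from each other pathway list, the 5 genes nearest to Il33, and the called markers or those that changed most. Named outside this rule, after their values were seen or for their role or place, are Casp1, Casp4, Nlrp3, Myd88, Irak1, Traf6, Il25, Il6, Cxcl1, Cxcl2, Cxcl5, Tnfaip3, S100a8, Treml1, genes whose call moved with the block, the neutrophil, mast cell and lymphocyte proteases, the silent defining markers and the chromosome neighbours.

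The labels give each group biological replicates 1 to 3. Deviations from the group means of arrays that share a number correlated at 0.25, 0.15 and 0.20, each the highest for its array. The labels do not say what a shared number stands for, so a pairing is possible but not established. The main calls leave it out, and the fit with the replicate number as a block was an alternative. Other alternatives were a mean-variance trend, robust estimates, the methods' t-test (their general default, not their array test) and other scalings. Further ones were leaving out dim probe sets, other ways to pick probe sets, array weights, a threshold of 0.01 and leaving out each array.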

Additional observations from a re-analysis of the deposited data

How the results depend on the processing

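The difference of Il33, the value on which the family was selected, ran from 5.46 to 6.16 over 19 alternatives. Of 45037 probe sets, 12779 were called. The count was 7659 with the methods' t-test after adjustment, 7380 at a threshold of 0.01 and 6718 when 1 probe set per gene was tested, and it ran from 9261 to 11764 when 1 array was left out. Calls higher made up 51.0% in the deposited scaling, 64.1% with a common median (8068 higher, 4522 lower), 84.5% with equal hybridization controls (8064 higher, 1480 lower) and 61.5% with the adjusted t-test. With equal hybridization controls the estimated prior degrees of freedom were infinite, against 4.03 in the deposited scaling, so that 1 common spread was used and 1683 of 9544 calls fell on probe sets whose own spread gave an unadjusted p of 0.05 or more. Cxcl5, called higher there, is one of the genes with widely spread control pools. Among the marker lists, this scaling called no basal and 3 secretory markers lower, and the adjusted t-test called no basal and no secretory markers and 3 ciliated markers lower. Of the pathway genes, whose measured numbers are given list by list above, 34 were called. Over all genes 18.4% were called higher and 16.1% lower, and nothing is read from the pathway count. It was 19 with the adjusted t-test, 22 at 0.01 and 25 to 34 without 1 array. The probe set 1421843_at of Il1rap, within background, turned to 0.064 with equal hybridization controls. With the replicate number as a block 13552 probe sets and 37 pathway genes were called, and the difference of Il33 stayed 5.71. Among 210 probe sets of the family, the lists and the nearest genes, the block added 7 calls (Il18rap, Casp1, Casp4, Zc3h12a, Scgb1a1, Trp63 and Col3a1), removed 5 (Il1rap 1421843_at, Il1rl2, Pdpn, Epcam and Cd4) and changed no other. No called pathway gene changed sign in any alternative.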

Other observations

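Some genes that neighbour the family's other members on their chromosomes changed in another direction, or by another amount, than the member. These differences between neighbours were not tested. Ckap2l, a gene of the mitotic spindle next to Il1a on chromosome 2, rose by 2.12 (SE 0.08, adjusted p = 5.4e-06), while Il1a was within background and Il1b was at -0.21. Cldn1, a tight junction gene near Il1rap on chromosome 16, rose by 2.05 (SE 0.16, adjusted p = 0.00012), while Il1rap was lower, at -0.70. Plet1 and Bco2, near Il18 on chromosome 9, fell by 1.31 and 0.79 (adjusted p = 8.1e-05 and 0.0050), while Il18 was at -0.16. On the same side of Il18, Pts fell by 0.60 (adjusted p = 0.017) and Ncam1, within background, by 0.46 (adjusted p = 0.0044). On the other side Sdhd, Nkapd1 and Timm8b rose by 0.73, 0.46 and 0.41 (adjusted p = 0.0079, 0.012 and 0.039). These neighbours were picked after their values were seen.

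In most, but not all, of the 20 measured genes of the IL-1 target list the first control pool lay above the other control pools. Il6, Cxcl1, Cxcl2 and Tnfaip3 were picked from these after their values were seen, and Il6 was within background in both groups by its mean. In the first control pool they read 4.31, 9.47, 6.72 and 9.51. In the other control pools they read 2.88 to 3.05, 8.35 to 8.48, 5.03 and 8.13 to 8.42. At 48 hpi the same genes read 2.78 to 2.81, 7.43 to 7.82, 4.80 to 5.03 and 7.82 to 8.25. Cxcl5 was low in the second control pool only, at 4.28, against 7.55 to 8.60 at 48 hpi and 8.75 and 9.05 in the other control pools.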
